A study of Mus musculus with 8 samples.

Results

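CA2 and CA3 pyramidal markers are 10 genes used to tell the pyramidal neurons of the neighbouring fields of the hippocampus from those of CA1. They were followed here in RNA from dissected CA1 of 8 Cas9 mice, as a gauge of what the dissections held. The members were taken from a fixed list of symbols, 7 for CA2 (Rgs14, Amigo2, Pcp4, Cacng5, Map3k15, Necab2 and Stard5) and 3 for CA3 (Bok, Iyd and Nectin3). Each matched 1 of 37315 Ensembl identifiers in the count files, and all 10 passed the filter on low counts, which kept 14788 genes. The rule that picked them uses no measured value, but the list was chosen with earlier results of these data known.

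All 8 mice expressed Cas9 and received by stereotaxic injection an adeno-associated virus (AAV) that carried a guide RNA. The guide was a control guide in 4 mice, the Control group (controls 1 and 3 male, 2 and 4 female), and a SIK3 guide in 4 mice, the group labelled KO (KO 1 and 2 male, 3 and 4 female). Numbers follow the listing order and pair no animals. Each library came from 1 mouse. The sources used here give no Cas9 line, viral promoter, age or time after injection. Cas9 editing occurs only in cells that take up the virus, so each library may hold edited and unedited cells. Libraries held 13561662 to 18619928 counts. All values below are CPM (counts scaled to a common library size, with TMM factors), unless given per length. The targeted Sik3 averaged 147 ± 12.8 CPM with the control guide against 86.1 ± 9.71 CPM with the SIK3 guide (SD, n = 4 each), and the groups did not overlap.

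CA2 is a short stretch of pyramidal cells between CA3 and CA1. Its Schaffer collateral synapses resist the long-term potentiation that is readily induced in CA1, and it is known for its part in social memory. CA3 pyramidal cells receive the mossy fibres of dentate granule cells, excite one another through recurrent collaterals, and send the Schaffer collaterals to CA1. SIK3, a salt-inducible kinase, phosphorylates the CRTC coactivators of CREB, the factor that binds the cAMP response element (CRE).

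Because the targets of CREB are read through the CRE, the 250 bases before the start site of each member were taken from RefSeq (GRCm38.p6) for the 8 members with an entry, and both strands were searched for the full site TGACGTCA and the short site TGACG. The full site was in 0 of the 8 members, against 1.77% of 27025 genes with an entry. The short site was in 2 of 8, Stard5 and Iyd, against 19.8% of genes. For Iyd and Bok, the bases just after the listed start site matched no annotated transcript of the gene. Cacng5 had another entry, not shown, that held neither site. Windows of 4 members are shown, for 2 of the CA2 markers that were highest in KO 1 (Cacng5 and Amigo2), for the member with the largest log2 difference between the guides (Necab2) and for the member with the smallest (Stard5). They are written 5′ to 3′ on the strand of the gene in lower case, with any short CRE site in capitals. In Stard5 it starts 151 bases before the start site, and the other windows shown held none. A match is a description of the letters and does not show a bound site.
Cacng5 (chr11:107915056-107915305, minus strand): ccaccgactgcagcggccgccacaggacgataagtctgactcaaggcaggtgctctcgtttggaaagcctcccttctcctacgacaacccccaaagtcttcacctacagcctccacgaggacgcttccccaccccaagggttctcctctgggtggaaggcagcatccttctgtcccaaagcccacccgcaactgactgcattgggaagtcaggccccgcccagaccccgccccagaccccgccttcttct
Amigo2 (chr15:97247288-97247537, minus strand): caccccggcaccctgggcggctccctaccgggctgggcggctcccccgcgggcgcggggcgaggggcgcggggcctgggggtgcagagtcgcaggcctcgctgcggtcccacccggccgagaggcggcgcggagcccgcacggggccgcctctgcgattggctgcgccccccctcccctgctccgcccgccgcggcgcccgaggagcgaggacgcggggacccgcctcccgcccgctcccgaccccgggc
Necab2 (chr8:119446469-119446718, plus strand): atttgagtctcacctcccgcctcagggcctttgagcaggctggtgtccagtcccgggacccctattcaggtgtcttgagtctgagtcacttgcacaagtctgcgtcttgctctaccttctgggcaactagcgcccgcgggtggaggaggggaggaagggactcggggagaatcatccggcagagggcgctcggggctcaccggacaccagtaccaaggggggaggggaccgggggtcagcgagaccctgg
Stard5 (chr7:83631767-83632016, plus strand): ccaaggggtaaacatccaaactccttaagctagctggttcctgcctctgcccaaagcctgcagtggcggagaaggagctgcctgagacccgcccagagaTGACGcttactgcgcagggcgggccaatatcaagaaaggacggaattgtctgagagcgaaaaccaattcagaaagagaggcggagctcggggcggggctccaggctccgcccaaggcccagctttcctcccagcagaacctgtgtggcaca

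Levels of the markers came first, as a measure of how much of their RNA the tissue labelled CA1 held. All 10 members were detected in all 8 libraries, from 71 counts for Map3k15 in the lowest library to 1552 for Nectin3 in the highest. As CPM per kilobase of exon, a scale that allows genes to be compared, Pcp4 was highest at 14.4 ± 2.24 (SD, n = 8 libraries). Rgs14 followed at 13.2 ± 1.33, Necab2 at 10.2 ± 1.27, Bok at 10.1 ± 1.63 and Amigo2 at 9.24 ± 1.41. Neighbours in that order overlapped in their ranges over the libraries. A step came next: the lowest library for Amigo2 (7.54) lay above the highest for Nectin3 (6.96). Nectin3 (6.47 ± 0.43), Iyd (5.65 ± 0.73) and Cacng5 (4.07 ± 0.73) each overlapped their neighbour. Stard5 (2.91 ± 0.10) and Map3k15 (1.63 ± 0.43) were lowest, and their ranges did not touch each other or that of Cacng5. Exon lengths were the union of all annotated exons, which lowers the value of a gene whose long exons are rarely used. Nectin3 had the longest union of the members, 12747 bases, and the use of its exons was not measured.

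On the same scale the median over the 7 CA2 markers was 9.24 and over the 3 CA3 markers 6.47. It was 10.2 over 10 CA1 markers and 7.74 over 11 dentate granule markers. Wfs1, an endoplasmic reticulum protein gene used to outline CA1, was at 31.3, and Fibcd1, another CA1 gene, at 17.3. Prox1, the factor that sets granule cell identity, was at 33.5 and the desmosomal gene Dsp, a granule cell marker, at 19.3. The tissue labelled CA1 thus carried defining dentate genes at levels per length like those of defining CA1 genes, in every library. Further genes on the CA2 and CA3 lists were also present. Among CA2 genes, the phosphatase gene Ptpn5 was at 13.3. Among CA3 genes, the kainate receptor subunit gene Grik4 was at 9.24 and the copine gene Cpne4 at 33.8. Several of these genes are also known from other cell types, and bulk RNA gives no cell of origin. In these bulk libraries, fewer cells of a type and less RNA per cell cannot be told apart.

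The main question was whether the SIK3 guide changed these markers. Of the 10 members, 0 passed the edgeR quasi-likelihood test (adjusted p over 14788 genes under 0.05), against 0.0135% of all tested genes, and 0 passed by DESeq2 or limma voom. Log2 fold changes of KO against control ran from -0.027 for Iyd to 0.27 for Necab2, with 5 positive and 5 negative, where 51.5% of all tested genes were positive. Their median was 0.0082, beside 0.0036 over all tested genes. At an unadjusted p under 0.05 there were 2 of 10, Rgs14 and Necab2, both higher in KO mice, against 2.81% of all tested genes. All 10 had an edgeR adjusted p of 0.9999.

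**Figure D1:**
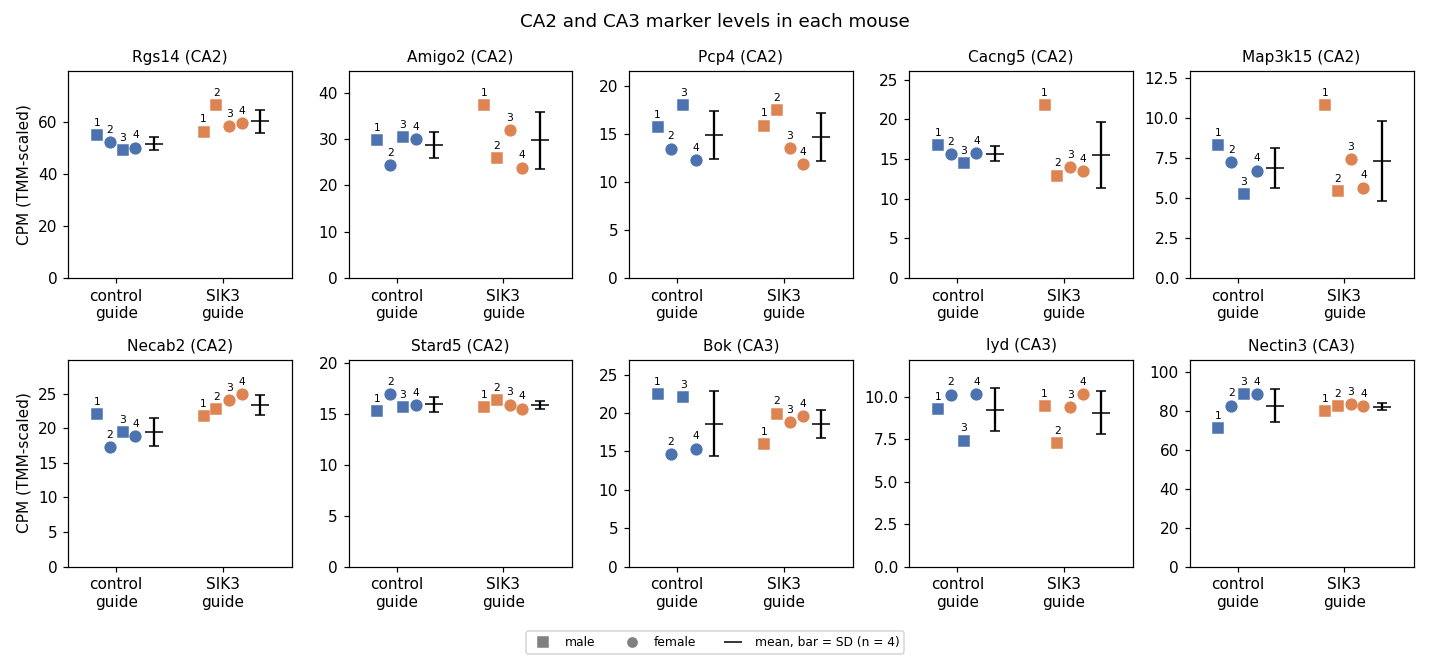
CPM of the 10 markers in each mouse (number beside the point: replicate in its group; squares male, circles female), with the mean and SD of the 4 mice of a group at the right of the points. Rgs14 and Necab2 sit higher in the SIK3 guide group, KO 1 stands above the other mice for Cacng5, Map3k15 and Amigo2, and the groups largely cover the same range for the rest.

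Rgs14 (ENSMUSG00000052087, chromosome 13, 55369732 to 55384687 on GRCm38, plus strand) encodes a regulator of G protein signalling that restrains synaptic potentiation in CA2. It was at 55.0, 52.4, 49.2 and 50.1 CPM in controls 1 to 4 and at 56.3, 66.4, 58.5 and 59.4 CPM in KO 1 to 4. Every KO library was above every control, by a margin of about 1 CPM between control 1 and KO 1. The means were 51.7 ± 2.60 and 60.1 ± 4.36 CPM (SD, n = 4 each), and the log2 fold change was 0.22 ± 0.07 (SE), with a 95% interval of 0.068 to 0.37 (edgeR, unadjusted p = 0.00829, adjusted p = 0.9999). Rgs14 was the 1 member of 10 whose groups did not overlap, against 0.933% of tested genes with all KO libraries higher and 1.74% with no overlap in either direction. Scaled by library totals without TMM the groups met, with 55.5 CPM in control 1 and 55.3 CPM in KO 1. Males had a log2 fold change of 0.24 and females one of 0.20.

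Necab2 (ENSMUSG00000031837, chromosome 8, 119446719 to 119472640, plus strand) encodes a neuronal EF-hand calcium-binding protein. It was at 22.1, 17.3, 19.4 and 18.8 CPM in controls, against 21.7, 22.7, 24.1 and 24.9 CPM in the KO group. KO 2, 3 and 4 lay above every control, and control 1 lay above KO 1. The log2 fold change was 0.27 ± 0.09 (SE), with a 95% interval of 0.074 to 0.47 (edgeR, unadjusted p = 0.0114, adjusted p = 0.9999). It was 0.44 ± 0.11 in females and 0.097 ± 0.12 in males. Within each sex 0 of 10 members passed, against 0.0406% of tested genes in females and 0% in males. At an unadjusted p under 0.05 there were 2 members in females (Necab2 and Bok), against 7.11% of tested genes, and 2 in males (Rgs14 and Bok), against 1.83%. The test of the difference between the sexes had an unadjusted p of 0.0542 (edgeR, adjusted p = 0.765).

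Values of the libraries and of other cell types are set beside those of Rgs14 and Necab2. The dependence of log2 CPM on GC content differed between libraries, with slopes per 10 percentage points of 0.14, -0.049, -0.091 and -0.12 in controls 1 to 4 and -0.16, 0.089, 0.029 and 0.16 in KO 1 to 4. The longest transcript of Necab2 had 63.6% GC and that of Rgs14 52.0%, beside a median of 49.4% over tested genes. With the slope as a further covariate, chosen after seeing the data, the log2 fold change of Rgs14 was 0.19 ± 0.05 (SE; edgeR, unadjusted p = 0.00331, adjusted p = 0.654). That of Necab2 was 0.23 ± 0.07 (SE; edgeR, unadjusted p = 0.00616, adjusted p = 0.776). Of the 10 CA1 markers, 7 had positive and 3 negative log2 fold changes, with a median of 0.090. Their summed level was 529 to 594 CPM in controls, against 566 to 601 CPM in the KO group. Of the 10 interneuron markers, 3 were positive and 7 negative, with a median of -0.031. Their sum was 806 to 944 CPM in controls, against 787 to 882 CPM in the KO group. Of the 11 dentate granule markers, 2 were positive and 9 negative, with a median of -0.023, and their sum ran from 898 to 1015 CPM in controls and from 834 to 1015 CPM in the KO group. All 6 oligodendrocyte markers were negative, with a median of -0.17 and sums from 2797 to 4666 CPM in controls and from 2562 to 4059.6 CPM in the KO group. All 6 microglia markers were positive, with a median of 0.074 and sums from 228 to 246 CPM in controls and from 238 to 283 CPM in the KO group. In these 5 lists 0 genes passed, the summed ranges of the groups overlapped, and no marker was at 0 in any library. KO 1 had the lowest GC slope. Rgs14 in KO 1 was above every control with TMM scaling, but not on library totals. The dentate level was taken as the mean centred log2 CPM of the 11 dentate granule markers. These did not move together: KO 4 was the lowest library for 5 of them and the highest for 2. Their mean is therefore a limited gauge of dentate content. With the dentate level as a covariate the log2 fold changes were 0.23 for Rgs14 and 0.29 for Necab2. Apart from the GC and dentate covariates, the part of these values in the differences was not tested.

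Amigo2 (ENSMUSG00000048218, chromosome 15, 97244125 to 97247287, minus strand) encodes an adhesion protein with leucine-rich repeats. It was at 29.9, 24.4, 30.5 and 30.04 CPM in controls, against 37.3, 25.9, 32.0 and 23.9 CPM in the KO group. KO mice held both the highest and the lowest library, and the log2 fold change was 0.053 ± 0.12 (SE; 95% interval -0.22 to 0.32). Cacng5 (ENSMUSG00000040373, chromosome 11, 107874605 to 107915055, minus strand) encodes an auxiliary subunit of AMPA receptors. It was at 16.7, 15.6, 14.5 and 15.8 CPM in controls, against 21.8, 12.9, 14.0 and 13.5 CPM in the KO group. KO 1 was above all controls, and the other 3 KO libraries were below all of them. The log2 fold change of Cacng5 was -0.020 ± 0.14 (SE; 95% interval -0.34 to 0.29). Map3k15 (ENSMUSG00000031303, chromosome X, 159988433 to 160123351, plus strand) encodes a kinase of the MAP kinase cascade and had the fewest counts. It was at 8.30, 7.28, 5.23 and 6.72 CPM in controls, against 10.8, 5.41, 7.44 and 5.65 CPM in the KO group, again with KO 1 highest. Its log2 fold change was 0.080 ± 0.21 (SE; 95% interval -0.39 to 0.55), the widest interval of the members.

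Left out, KO 1 changed these 3 values most. Without it the log2 fold change was -0.061 for Amigo2, -0.22 for Cacng5 and -0.18 for Map3k15, with edgeR adjusted p of 0.859, 0.432 and 0.717. KO 1 was the highest library for 3 of the 7 CA2 markers and for 3 of 14 further CA2 genes, against 16.5% of all tested genes. The mean log2 CPM of the 7 CA2 markers, centred on the 8 libraries, was 0.23 in KO 1, 0.072 in control 1, and -0.11 to 0.037 in the other libraries. In the same library the GC slope was the lowest of the 8 and interneuron markers were lowest, at a centred mean of -0.25. Dentate markers were at a centred mean of -0.030 there, which joined values as unlike as 0.13 for Prox1 and -0.59 for Plk5. With the GC slope as a covariate the log2 fold changes were 0.11 for Amigo2, 0.038 for Cacng5 and 0.13 for Map3k15. With the dentate level they were 0.025, -0.075 and 0.047. The longest transcripts of the 3 genes had 48.1, 51.7 and 48.6% GC, beside a median of 49.4% over tested genes. Apart from these covariates, the part of the GC slope, interneuron and dentate markers in the level of the CA2 genes was not tested. The further CA2 genes highest in KO 1, named here after their values were seen, were Ccdc3 (18.7 CPM in KO 1, 11.5 to 17.1 CPM in the other libraries), the glutathione transferase gene Gsto1 (18.2 against 12.8 to 16.6 CPM) and Acan, the core protein of perineuronal nets (13.6 against 8.18 to 11.6 CPM).

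Pcp4 (ENSMUSG00000090223, chromosome 16, 96467606 to 96525793, plus strand) encodes a small regulator of calmodulin. It was at 15.7, 13.5, 17.96 and 12.3 CPM in controls, against 15.8, 17.4, 13.5 and 11.9 CPM in the KO group. The guide groups covered the same range, with a log2 fold change of -0.017 ± 0.09 (SE; 95% interval -0.22 to 0.18). The sexes did not overlap: the 4 males were at 15.7 to 17.96 CPM and the 4 females at 11.9 to 13.5 CPM, a separation that 2.52% of tested genes had in that direction and 1.93% in the other. The log2 fold change of females against males was -0.39 ± 0.09 (edgeR, unadjusted p = 0.00126, adjusted p = 0.453) and did not pass. Of the 10 members 0 passed between the sexes in edgeR, DESeq2 or limma voom, against 0.0609% of tested genes in edgeR. Pcp4 was the 1 member at an unadjusted p under 0.05 there, against 6.05% of tested genes. All females had more counts in total than all males, so depth and sex cannot be told apart.

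Stard5 (ENSMUSG00000046027, chromosome 7, 83631959 to 83653127, plus strand) encodes a lipid-binding protein with a START domain. It was at 15.3, 16.9, 15.7 and 15.8 CPM in controls, against 15.6, 16.3, 15.9 and 15.5 CPM in the KO group. Its libraries differed by 0.302 times what counting error gives (chi-square over its degrees of freedom), whereas the other 9 members differed by 2.22 (Iyd) to 9.79 (Amigo2) times. The log2 fold change was -0.0089 ± 0.08 (SE; 95% interval -0.18 to 0.17). Exons of Stard5 share 1202 bases, 22.0% of its exon length, with Il16 on the opposite strand, and those of Map3k15 share 603 bases with Pdha1 on the opposite strand. No source used here gives the strand setting of the counting, so reads from these shared stretches may be lost or assigned to either gene. Exons of Pcp4 share 243 bases with an Igsf5 model on the same strand, whose identifier was not among those counted.

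Among the CA3 markers, Bok (ENSMUSG00000026278, chromosome 1, 93685660 to 93695764, plus strand), a member of the BCL-2 family, was at 22.5, 14.6, 22.1 and 15.4 CPM in controls, against 16.0, 19.9, 18.8 and 19.6 CPM in the KO group. The log2 fold change over both sexes was 0.025 ± 0.13 (SE; 95% interval -0.26 to 0.31). The values of the sexes lay in opposite directions. Both KO males lay below both control males, with a log2 fold change of -0.31 ± 0.13, and both KO females lay above both control females, with 0.36 ± 0.13. The difference between the sexes was 0.67 ± 0.18 (edgeR, unadjusted p = 0.00307, adjusted p = 0.765) and did not pass. Such a separation in opposite directions was present in 5.09% of tested genes. The longest Bok transcript had 61.0% GC. Of all 10 members 0 passed for the interaction in edgeR, DESeq2 or limma voom (0% of tested genes in edgeR), and Bok was the 1 at an unadjusted p under 0.05, against 5.42% of tested genes.

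**Figure D2:**
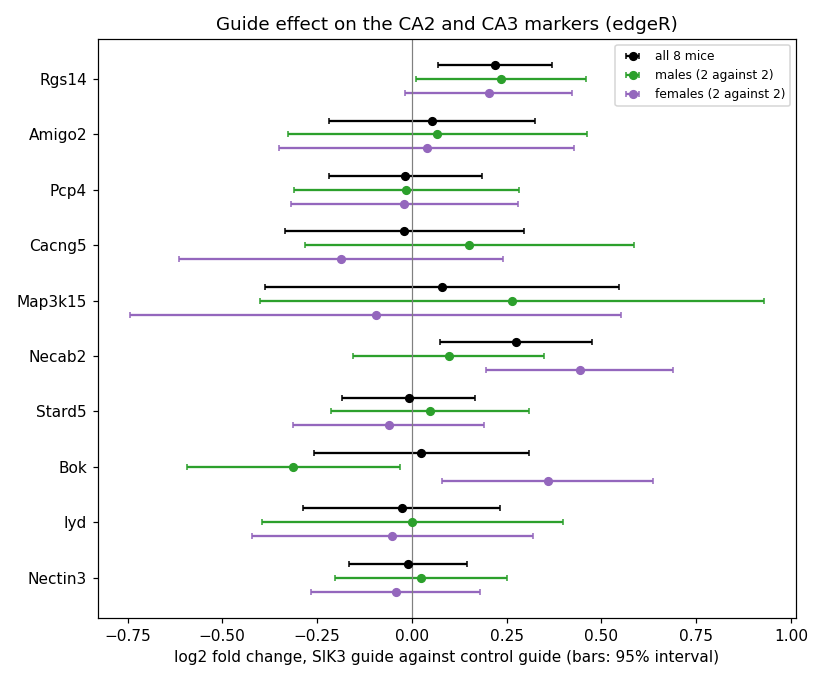
Log2 fold change of the SIK3 guide against the control guide for each marker (x axis), with the 95% interval from edgeR, over all 8 mice (black), the males (green) and the females (purple, each sex 2 mice against 2). Bok lies at -0.31 in males and 0.36 in females, and the interval over all mice leaves 0 for Rgs14 and Necab2 alone, before adjustment over genes.

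Iyd (ENSMUSG00000019762, chromosome 10, 3540240 to 3554877, plus strand), which encodes iodotyrosine deiodinase, was at 9.29, 10.1, 7.43 and 10.2 CPM in controls, against 9.47, 7.26, 9.43 and 10.2 CPM in the KO group. One male of each group, control 3 and KO 2, was low, and the log2 fold change was -0.027 ± 0.12 (SE; 95% interval -0.29 to 0.23). Nectin3 (ENSMUSG00000022656, chromosome 16, 46387706 to 46498525, minus strand), a cell adhesion protein gene, was at 71.1, 82.7, 88.7 and 88.5 CPM in controls, against 79.7, 82.6, 83.6 and 82.6 CPM in the KO group. The KO libraries lay inside the range of the controls. Its log2 fold change was -0.010 ± 0.07 (SE), with a 95% interval of -0.17 to 0.14. Of the members, Rgs14 had an interval of about the same width, and the other 8 had wider ones.

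The intervals bound what these data could miss. Before adjustment over genes, the 95% intervals of Pcp4, Stard5 and Nectin3 left out changes beyond 0.22 log2 units in either direction. Those of Amigo2, Bok, Iyd and Cacng5 reached 0.29 to 0.34 units on their wider side. Those of Rgs14, Necab2 and Map3k15 reached further, with Map3k15 the widest of the members. An interval that holds 0 does not show that a gene stayed the same.

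Further genes of both fields were counted in the same way. Of 14 further CA2 genes tested, 9 were positive and 5 negative, with a median log2 fold change of 0.021, and 0 passed. At an unadjusted p under 0.05, where 2.81% of all tested genes lay (264 higher and 152 lower), 1 was lower, the BMP and Wnt antagonist gene Sostdc1 (log2 fold change -0.61 ± 0.27; controls 1.32 ± 0.25 CPM, KO group 0.87 ± 0.26 CPM, SD over 4 mice in each). Ptpn5, a striatum-enriched phosphatase gene also high in CA2, was at 74.5 ± 4.09 and 79.7 ± 4.54 CPM (SD). Adcy5, an adenylyl cyclase gene, was at 64.7 ± 7.97 and 68.2 ± 5.96 CPM (SD). Of the 13 further CA3 genes 12 were tested, 11 positive and 1 negative beside 51.5% positive over all tested genes, with a median of 0.060, and 0 passed. At an unadjusted p under 0.05, 2 were higher, against the same 2.81% of tested genes in either direction. Cdh24, a cadherin gene, had a log2 fold change of 0.30 ± 0.12 and the collagen VI gene Col6a1 of 0.37 ± 0.15 (SE). Grik4 was at 54.8, 52.0, 50.3 and 52.8 CPM in controls, against 47.7, 57.4, 59.4 and 66.3 CPM in the KO group, with KO 1 the lowest of all. KO 4 was the highest library for 5 of the 12 further CA3 genes tested, against 17.1% of all tested genes. The mean centred log2 CPM of these 12 genes was 0.16 in KO 4, 0.12 in KO 3, 0.012 in KO 2 and -0.072 in KO 1, with controls from -0.098 to 0.026. For the 3 CA3 markers it was 0.086 in KO 4 and -0.066 in KO 2, with the other libraries between. KO 4 also had the highest mean of the 8 libraries for subiculum (0.37), microglia (0.28), mossy cell (0.19) and interneuron markers (0.14). It had the lowest mean for the CA2 markers (-0.11), and its GC slope was the highest of the 8 (0.16). Whether these have a part in the levels of the further CA3 genes was not tested.

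**Figure D3:**
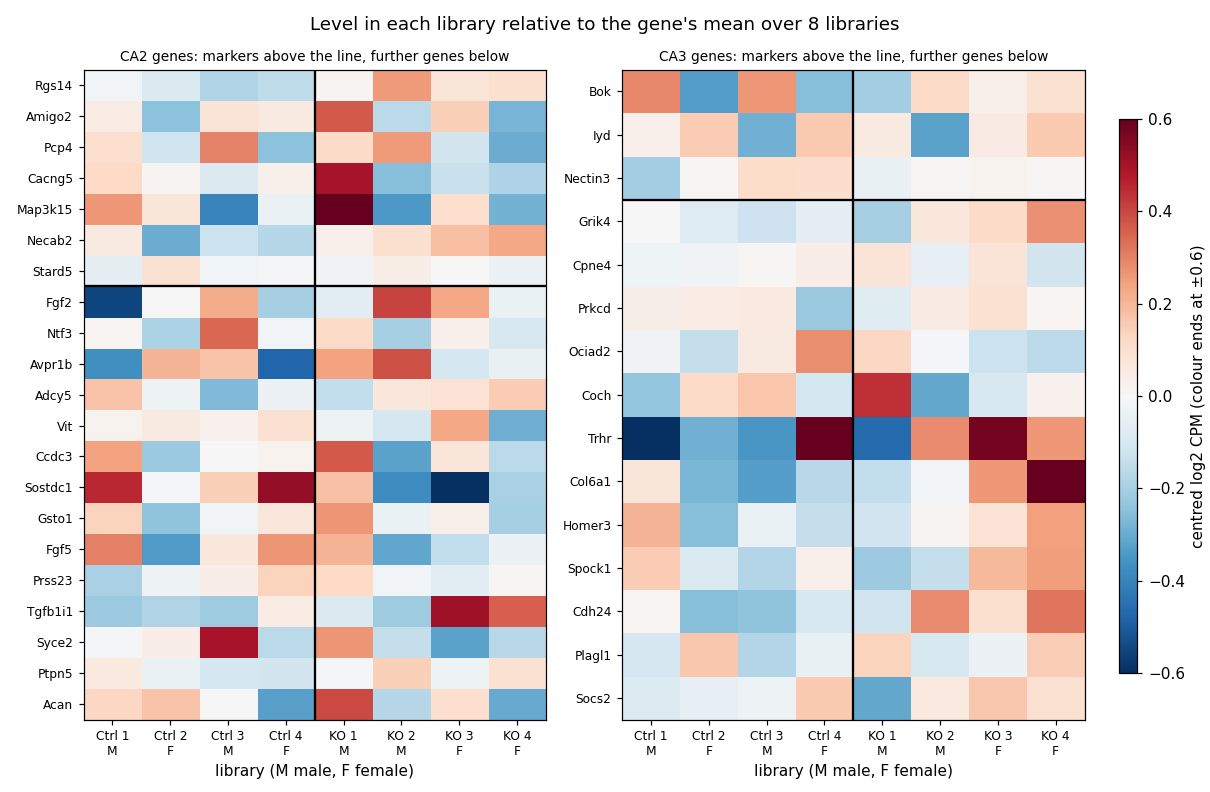
Log2 CPM of each gene in each library minus its mean over the 8 libraries (colour, ending at 0.6 in either direction), for the CA2 genes (left) and CA3 genes (right), with the markers above the black line and the further genes below it. KO 1 is high for Amigo2, Cacng5, Map3k15, Ccdc3 and Acan, while Rgs14 and Necab2 follow another order of libraries.

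The last comparison was whether the markers rose and fell together from mouse to mouse. Over the 45 pairs of members, 15 had a positive and 30 a negative Pearson r of log2 CPM. With 20 further pairs against Fibcd1 and Prox1, 65 relations were computed, of which 0 passed after adjustment (exact permutation over all orders of the libraries, two-sided, smallest adjusted p 0.107 for r and 0.297 for rho) and 5 had an unadjusted p under 0.05 for r. Cacng5 and Map3k15 had r = 0.89 (exact permutation p = 0.00461, adjusted p = 0.107) and rho = 0.71 (exact permutation p = 0.0576, adjusted p = 0.749) over 8 libraries. Without KO 1 and KO 2, the 2 libraries farthest from the median of Cacng5, r was 0.65. After the group means were removed it was 0.90, and after the sex means 0.90. Amigo2 and Cacng5 had r = 0.70 (exact permutation p = 0.0450, adjusted p = 0.586) and rho = 0.48 (exact permutation p = 0.243, adjusted p = 0.832). Without KO 4 and KO 1 that r was 0.13, so the relation rested on those libraries.

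For Rgs14, the largest r computed was with Fibcd1, the only CA1 marker used, and neither it nor any other passed after adjustment. It was 0.87 (exact permutation p = 0.00494, adjusted p = 0.107) and rho 0.83 (exact permutation p = 0.0154, adjusted p = 0.472) over 8 libraries. It was 0.71 without KO 2 and control 3, 0.91 after the group means were removed and 0.88 after the sex means. KO 2, the highest library for Rgs14 and Fibcd1, was the highest for 4 of the 10 CA1 markers. The r with Fibcd1 therefore does not stand for the CA1 markers as a list. The longest Fibcd1 transcript had 59.4% GC, beside 52.0% for Rgs14 and a median of 49.4% over tested genes. Whether the GC slopes of the libraries have a part in this r was not tested. With Necab2, r was 0.74 (exact permutation p = 0.0364, adjusted p = 0.586) and rho 0.81 (exact permutation p = 0.0218, adjusted p = 0.472), with 0.90 without KO 2 and control 3, and 0.25 after the group means were removed. With Amigo2, Cacng5 and Map3k15, Rgs14 had r of -0.24, -0.33 and -0.090 (exact permutation p = 0.567, 0.424 and 0.831) and rho of -0.26, -0.55 and 0.071 (exact permutation p = 0.536, 0.171 and 0.882). The pair with the smallest p was Pcp4 and Iyd, with opposite signs. Because Pcp4 separated the males from the females, no pooled r is given, and each sex alone had too few mice for one. After the sex means were removed r was -0.78 over the 8 libraries, given as a description with no test.

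**Figure D4:**
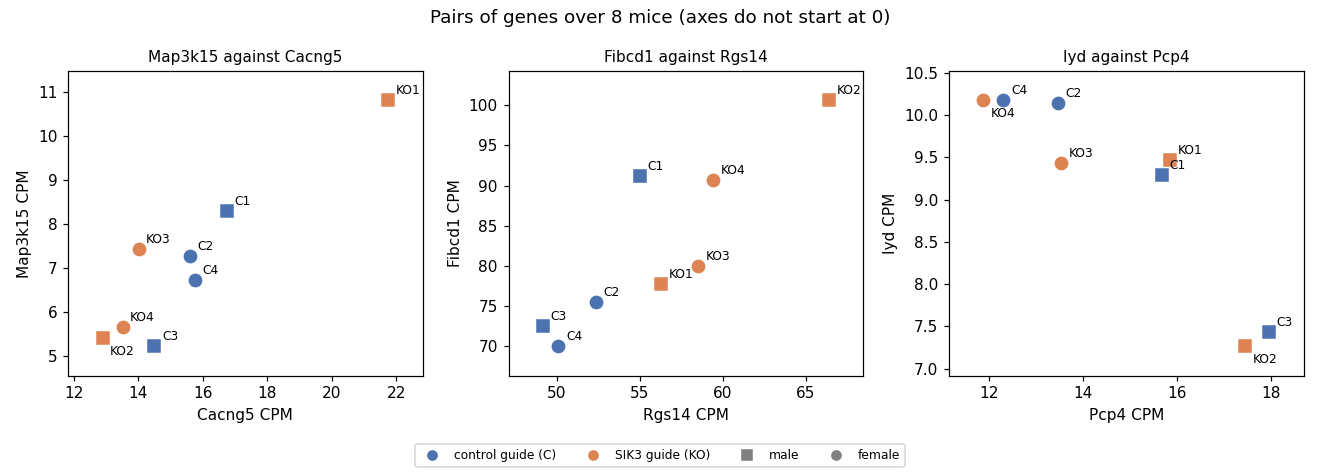
CPM of 1 gene against another in each of the 8 mice (blue control guide, orange SIK3 guide, squares male, circles female; axes do not start at 0). KO 1 lies apart at 21.8 CPM of Cacng5 and 10.8 CPM of Map3k15, KO 2 is highest for Rgs14 (66.4 CPM) and Fibcd1 (101 CPM), and males and females lie apart on the Pcp4 axis.

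Genes closest in pattern were found for the first member of each field among 10909 other tested genes with a mean CPM of at least 5, by the root mean square difference of centred log2 CPM over the 8 libraries. For Rgs14, whose own root mean square deviation was 0.13, they were Bud13 (0.047), Pou6f1 (0.050) and Dgkq (0.056). For Bok, with 0.22 of its own, they were Nol12 (0.073), Apcdd1 (0.076) and Polr1c (0.081). These are the smallest of 10909 differences over 8 libraries and are given as a description.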

How the data were processed

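For each mouse the authors deposited a file of raw counts over 37315 Ensembl identifiers. The submitters' processing notes list Trimmomatic 0.33, TopHat2 2.1.1, HTSeq 2.0.1 and mm10, without their roles. Per the labels' protocols, libraries were made with a TruSeq stranded mRNA kit. A series table with the same counts in 8 columns was not used. Totals ran from 13561662 to 18619928 counts, and counting error alone gave a coefficient of variation of 2.76% for Nectin3 to 9.40% for Map3k15.

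The whole table was fitted in edgeR 4.0.16 (R 4.3.3) with TMM scaling, the quasi-likelihood F test and sex as an additive covariate, which left 5 residual degrees of freedom. The filterByExpr function kept 14788 genes (minimum count 10, minimum total 15). P-values were adjusted by Benjamini-Hochberg over these genes, with a threshold of 0.05. The standard error is the size of the log2 fold change divided by the square root of F. Log2 CPM used a prior count of 2. Symbols, positions and exon lengths came from GENCODE M21 (GRCm38). P-values measure the spread between mice, which the labels number singly.

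Members and lists were chosen with earlier results of these data known. All members are named, and from each other list the 3 genes with the smallest p and the 3 with the highest CPM may be; Wfs1, Fibcd1, Prox1 and Dsp are named as defining genes. Alternatives were other scalings, filters and covariates, DESeq2 1.42.0, limma 3.58.1 voom and leaving out each library. The procedure was tested on simulated data.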

Additional observations from a re-analysis of the deposited data

Results flagged for a closer look

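Groups of 4 libraries were checked for a library far from the other 3, in 20 groups (10 markers, each in Control and KO), where chance flags about 5% of groups. KO 1 stood apart for Cacng5, at 21.8 CPM against 12.9 to 14.0 CPM in KO 2 to 4. Control 2 stood apart for Amigo2, at 24.4 CPM against 29.9 to 30.5 CPM in the other controls.

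For Bok, both KO males lay below both control males, and both KO females lay above both control females. The log2 fold changes of the 2 sexes differed by 0.67 (females minus males). The edgeR test of this difference did not pass after adjustment (adjusted p = 0.765). Of tested genes, 5.09% had such a separation in opposite directions.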

How the results depend on the processing

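Over 17 alternatives 0 markers were called for the guide, with a smallest adjusted p of 0.379 (Rgs14 without KO 1); 0 were called for sex or for the interaction wherever these were refitted. The number of all genes called was 2, and was 84 with no filter on low counts, 0 with the dentate markers as a covariate, and 0 to 2 when 1 library was left out (0 without control 2, control 3, KO 2 or KO 3). Log2 fold changes of Rgs14 (0.16 to 0.26 without 1 library) and Necab2 (0.21 to 0.34) were positive in all 17. The others lay near 0 and changed sign when 1 library was left out: Amigo2 ran from -0.061 to 0.14, Pcp4 from -0.066 to 0.023, Cacng5 from -0.22 to 0.082, Map3k15 from -0.18 to 0.22, Stard5 from -0.037 to 0.023, Bok from -0.063 to 0.15, Iyd from -0.11 to 0.032 and Nectin3 from -0.085 to 0.048. With the dentate covariate Pcp4 was at 0.020. With the GC slope as a covariate, which was chosen after seeing the data, Cacng5 was at 0.038, Bok at -0.052 and Nectin3 at 0.019. The cause was not tested. The count of markers whose groups did not overlap was 1, and 0 on library totals without TMM, also chosen after seeing the data. With RLE scaling 0 of 65 pairs passed (smallest adjusted p 0.131). No paired analysis was possible because the labels give animal numbers that the groups do not share.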
